A study of Homo sapiens with 6 samples.

Results

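Transcripts of 9 tight junction genes were followed in Huh7, a cell line from a human liver tumour, after knockdown of isoform V1 of versican, a proteoglycan of the extracellular matrix. The genes are the claudins CLDN1, CLDN2, CLDN4, CLDN6, CLDN7 and CLDN12, the other membrane proteins OCLN (occludin) and F11R (junctional adhesion molecule A), and the scaffold TJP1 (ZO-1). They were taken by symbol from the deposited table of 23344 rows, in which they fill 10 rows because the symbol F11R stands on 2 of them. There were 3 libraries from Huh7 cells carrying the knockdown lentivirus (sh2) and 3 from Huh7 cells carrying the control lentivirus (shNC); both viruses were made in 293T cells and delivered with polybrene. The knockdown libraries bear the name of 1 hairpin, so its effect on other transcripts cannot be told apart from that of versican. Separate cultures are not stated for the libraries of a group, so the p-values cover the spread between libraries alone, and that spread may be technical.

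Tight junctions seal the space between neighbouring epithelial cells near the apical surface. Claudins are membrane proteins with 4 transmembrane segments whose extracellular loops meet across the gap and set which ions can pass: some, such as claudin-1, close the path, and others, such as claudin-2, form a channel. Occludin and junctional adhesion molecule A lie in the same strands or beside them, and ZO-1 binds the cytoplasmic tails and ties them to actin. In the liver these junctions separate bile from blood, and claudin-1 and occludin are known there as entry factors of hepatitis C virus.

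Values were treated as FPKM, that is, fragments scaled by transcript length and library size, which can be compared between genes. The table itself names no unit. They summed to between 922125 and 975501 in the knockdown and between 851418 and 947769 in the control libraries. In genes with 1 annotated transcript of 1000 to 1500 bases, low values fell on steps, and from the first step the depth relative to the deepest library was 0.815 in knockdown replicate 1 and 0.919 in knockdown replicate 2, against 0.910 to 0.965 in the control libraries. VCAN, the targeted gene, had 1.90, 1.74 and 1.64 in the knockdown and 4.79, 6.24 and 8.10 in the control libraries (log2 fold change -1.39, SE 0.19, limma adjusted p = 0.0103; without control replicate 2 the adjusted p was 0.0562). All 10 hepatocyte markers were present, with a summed value of 8359 to 10406 in the knockdown and 7012 to 9106 in the control libraries. Blood cell markers were high in 1 library: PTPRC, which encodes CD45, was at 1.96 and S100A8 at 17.9 in knockdown replicate 2, against at most 0.16 and 0 in the other libraries; both were named after their values were seen. The summed value of 12 such markers was 54.9, 157 and 46.0 in the knockdown libraries in replicate order, against 25.5 to 32.5 in the control libraries. Of these sums 1 gene, LYZ, supplied 44.5, 68.2 and 37.8 in the knockdown and 18.3 to 24.8 in the control libraries. Endothelial markers summed to at most 0.64 in any library, and 6 of the 10 had no row in the table.

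CLDN7 and CLDN4 rose in the knockdown libraries, each to a mean 2.33 times that of the control libraries, and stayed at low levels; in bulk RNA, more cells with a transcript and more RNA per cell cannot be told apart. Both encode claudins of many simple epithelia, and claudin-7 is known to bind the adhesion protein EpCAM. CLDN1, by far the most abundant member, and CLDN6 were also higher in every knockdown than in every control library, by smaller ratios of 1.26 and 1.28, and did not pass the test. The junction proteins outside the claudin family did not pass. Of the 8 members tested 2 rose, against 4.15% of all 13696 genes tested, and 0 fell, against 3.94% (limma, adjusted p below 0.05; 8.08% in either direction). Without knockdown replicate 1, 2 members rose and 1, CLDN12, fell, in a setting where 1638 of all 13696 genes tested rose and 1704 fell. Without knockdown replicate 2 or 3, or control replicate 1 or 2, 0 members rose and 0 fell. Over all genes tested, 100 rose and 37 fell without knockdown replicate 2, against 568 and 539 with all libraries. At an unadjusted limma p below 0.05, 4 of the 8 members were higher and 1 was lower. The share of all genes tested at that unadjusted level is not given, here or for the lists below. Counts at that level therefore cannot be called high or low for the members or for any list. The groups did not overlap for 4 of the 8, all higher in the knockdown, against 14.4% of all genes tested that were apart in that direction and 18.7% in the other. The median log2 fold change of the 8 was 0.27, beside -0.03 for all genes tested.

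**Figure D1:**
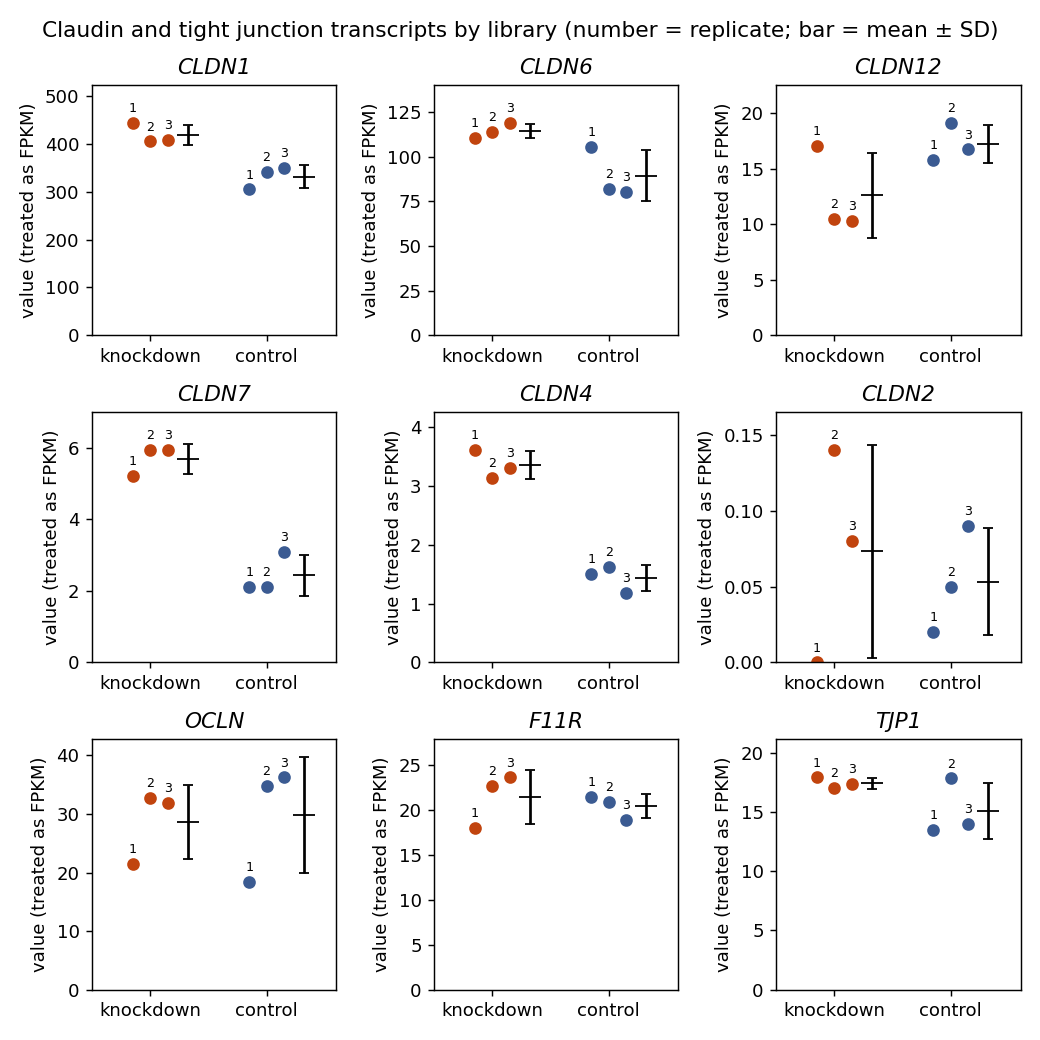
Value (treated as FPKM, linear axis from 0) of each of the 9 genes in the 3 knockdown and 3 control libraries, numbered by replicate, with the mean ± SD at the right of each group. The knockdown points of CLDN1, CLDN6, CLDN7 and CLDN4 lie above all control points, while CLDN12 and OCLN have 1 library far from the other libraries of a group.

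CLDN7 (ENSG00000181885) had 5.21, 5.93 and 5.93 FPKM in knockdown replicates 1, 2 and 3, against 2.11, 2.11 and 3.10 FPKM in the control replicates. The lowest knockdown library stood well above the highest control library. The means were 5.69 ± 0.42 and 2.44 ± 0.57 FPKM (SD, n = 3 each), and the log2 fold change of the value + 1 was 0.97 (SE 0.17, limma adjusted p = 0.0186). Without 1 of knockdown replicates 2 and 3 or control replicates 1 and 2 the adjusted p was between 0.0638 and 0.0863, with log2 fold changes of 0.90 to 0.94. The annotated ranges of CLDN7 and of its neighbour ELP5 overlap at one end. ELP5 had 28.7, 27.7 and 25.2 FPKM in the knockdown and 35.2, 29.8 and 31.1 FPKM in the control libraries, so it did not move in the direction of CLDN7; whether counting used the strand is not stated.

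CLDN4 (ENSG00000189143) had 3.61, 3.14 and 3.31 FPKM in the knockdown libraries and 1.50, 1.62 and 1.19 FPKM in the control libraries. Here too the groups were apart, with little spread within either. The means were 3.35 ± 0.24 and 1.44 ± 0.22 FPKM (SD, n = 3 each), and the log2 fold change of the value + 1 was 0.84 (SE 0.16, limma adjusted p = 0.0225). It kept its direction without any 1 library, and passed without knockdown replicate 1 (0.80, adjusted p = 0.0146). Without any 1 of the other 5 libraries the log2 fold change was between 0.76 and 0.89 and the adjusted p between 0.0686 and 0.0845. Without knockdown replicate 2, the library with blood cell transcripts, the log2 fold changes were 0.88 for CLDN4 and 0.94 for CLDN7, and neither passed (limma adjusted p = 0.0741 and 0.0708).

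These low values rest on few reads. From the step of 1 read and the annotated transcript lengths, CLDN4 had roughly 23.2 to 190.7 reads in a knockdown library and 9.1 to 85.0 in a control library, the low and high ends being the shortest and the longest transcript. The same estimate for CLDN7 was 28.5 to 157.8 and 12.9 to 78.2 reads. Together CLDN4 and CLDN7 made up 1.63% ± 0.10 of the summed value of the 6 claudins in the knockdown and 0.88% ± 0.07 in the control libraries (SD, n = 3 each). The ratio of CLDN7 to CLDN4 was 1.44, 1.89 and 1.79 in the knockdown and 1.41, 1.30 and 2.60 in the control libraries, so the proportion between them overlapped.

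The promoters of CLDN7 and CLDN4 are printed because these are the members that rose. Each window runs from 250 bases before to 50 bases after an annotated start, from RefSeq on GRCh38.p14, 5′ to 3′ on the strand of the gene, with every CACCTG or its reverse complement CAGGTG in capitals. That hexamer is the core that the repressors of the SNAI and ZEB families are known to bind.
CLDN7, downstream start (chr17:7262429-7262728, minus strand): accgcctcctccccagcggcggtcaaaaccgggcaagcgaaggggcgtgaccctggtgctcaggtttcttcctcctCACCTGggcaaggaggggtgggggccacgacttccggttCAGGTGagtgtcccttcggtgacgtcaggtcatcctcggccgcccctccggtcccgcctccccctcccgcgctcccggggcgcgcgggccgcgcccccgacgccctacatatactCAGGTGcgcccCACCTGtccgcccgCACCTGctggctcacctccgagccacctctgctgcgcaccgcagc
CLDN7, upstream start (chr17:7263164-7263463, minus strand): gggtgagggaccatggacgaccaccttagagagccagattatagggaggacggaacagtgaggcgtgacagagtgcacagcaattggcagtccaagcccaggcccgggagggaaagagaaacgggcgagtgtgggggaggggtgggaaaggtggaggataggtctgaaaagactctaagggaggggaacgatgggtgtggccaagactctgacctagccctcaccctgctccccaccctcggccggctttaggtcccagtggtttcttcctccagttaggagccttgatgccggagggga
CLDN4 (chr7:73830746-73831045, plus strand): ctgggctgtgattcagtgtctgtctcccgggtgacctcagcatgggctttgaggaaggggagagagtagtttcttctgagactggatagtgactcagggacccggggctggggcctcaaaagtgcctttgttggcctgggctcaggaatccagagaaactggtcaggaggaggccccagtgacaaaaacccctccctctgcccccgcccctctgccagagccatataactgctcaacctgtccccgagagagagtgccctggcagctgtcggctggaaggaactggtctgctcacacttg
The window at the downstream start of CLDN7 held 5 copies, a number reached by 0.0940% of the 35116 RefSeq promoter windows of that length, and the windows at the upstream start and at CLDN4 held 0. RefSeq windows were found for 8 of the 9 members, 14 in all, and 5 of the 14 held the hexamer on either strand, against 20.6% of all windows. Besides CLDN7 these belonged to CLDN6, OCLN and TJP1. The 5 copies at CLDN7 were the most in any of the 14 windows. That window was 71.7% G or C, and the shares over all windows were not matched for base content. GGAAG or its reverse complement CTTCC, a core of ETS factor sites, was in 11 of the 14 windows, against 71.9% of all windows, with 2 copies at CLDN4, 2 at the downstream and 1 at the upstream start of CLDN7. These are matches of letters, not sites of binding.

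CLDN1 (ENSG00000163347), the barrier-forming claudin of liver and skin, ranked 286th of all 23344 rows by its mean value. It had 443, 405 and 408 FPKM in the knockdown and 305, 341 and 350 FPKM in the control libraries. Every knockdown library was above every control library. The means were 419 ± 21.4 and 332 ± 23.6 FPKM (SD, n = 3 each), and the log2 fold change was 0.34 (SE 0.11, limma adjusted p = 0.0790). CLDN1 passed with quantile normalization (0.46, adjusted p = 0.0338) and when libraries were rescaled to their totals without mitochondrially encoded genes (0.44, adjusted p = 0.0437).

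CLDN6 (ENSG00000184697), a claudin of embryonic epithelia that reappears in some tumours, had 111, 114 and 119 FPKM in the knockdown and 106, 82.0 and 80.0 FPKM in the control libraries. The groups were apart, but control replicate 1 lay close to the knockdown libraries. The means were 114 ± 4.11 and 89.2 ± 14.2 FPKM (SD, n = 3 each), with a log2 fold change of 0.37 (SE 0.13, limma adjusted p = 0.108). CLDN1 and CLDN6 together set the total: the 6 claudins summed to 580, 539 and 546 FPKM in the knockdown and 430, 446 and 451 FPKM in the control libraries, a ratio of means of 1.25. CLDN1 made up 75.5% ± 0.93 of that sum in the knockdown and 75.0% ± 3.55 in the control libraries, and CLDN6 20.6% ± 1.40 and 20.2% ± 3.76 (SD, n = 3 each). Those shares differed by less than the spread between libraries.

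CLDN12 (ENSG00000157224) encodes a claudin whose tail lacks the motif by which others bind ZO-1. Among the 5 claudin members tested it alone had a negative log2 fold change. Outside the members, CLDN16 (-0.13) and CLDN23 (-0.08) were negative too, while CLDN3 (0.01) and CLDN15 (0.19) were positive, and none of these passed. CLDN12 had 17.03, 10.47 and 10.28 FPKM in knockdown replicates 1, 2 and 3, against 15.8, 19.1 and 16.7 FPKM in the control replicates. Knockdown replicates 2 and 3 were below all control libraries, and knockdown replicate 1 was among them. The log2 fold change was -0.45 (SE 0.19, limma adjusted p = 0.163). Without knockdown replicate 1 it was -0.67 and passed (adjusted p = 0.00892). In that setting 1704 of all 13696 genes tested fell, against 539 with all libraries. CLDN12 made up 2.25% ± 0.59 of the claudin sum in the knockdown and 3.89% ± 0.34 in the control libraries (SD, n = 3 each). The ratio of CLDN1 to CLDN12 was 26.0, 38.7 and 39.7 in the knockdown and 19.3, 17.8 and 20.9 in the control libraries. This ratio was not tested, and CLDN12 itself lay within the control range in knockdown replicate 1.

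CLDN2 (ENSG00000165376), the claudin of a cation and water channel, was near the limit of detection. It was listed at 0, 0.14 and 0.08 FPKM in the knockdown and at 0.02, 0.05 and 0.09 FPKM in the control libraries, about 5.6 reads at most. The groups overlapped, the gene was below the filter of 1 FPKM in 3 libraries, and it was not tested.

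OCLN (ENSG00000197822), which encodes occludin, had 21.4, 32.7 and 31.9 FPKM in knockdown replicates 1, 2 and 3 and 18.4, 34.8 and 36.2 FPKM in control replicates 1, 2 and 3. Replicate 1 of each group was low and the other libraries were alike. The log2 fold change was -0.02 (SE 0.26, limma adjusted p = 0.971, 95% interval -0.62 to 0.58). An annotated pseudogene copy of occludin, OCLNP1, could share reads with it.

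F11R had 18.0, 22.7 and 23.7 FPKM in the knockdown and 21.5, 20.9 and 18.9 FPKM in the control libraries on its main row (ENSG00000158769). The groups overlapped, with a log2 fold change of 0.06 (SE 0.14, limma adjusted p = 0.807, 95% interval -0.25 to 0.37). The second row of that symbol, ENSG00000270149, is an overlapping gene in GENCODE release 29. It was listed at 3.02 FPKM in control replicate 2 and otherwise at 0; with the rows summed, an alternative chosen after seeing the data, the log2 fold change was -0.002 (adjusted p = 0.995).

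TJP1 (ENSG00000104067), which encodes the scaffold ZO-1, had 17.93, 17.02 and 17.38 FPKM in the knockdown and 13.5, 17.9 and 14.0 FPKM in the control libraries. Control replicate 2 lay among the knockdown libraries and the other control libraries below them. The log2 fold change was 0.20 (SE 0.14, limma adjusted p = 0.358, 95% interval -0.11 to 0.51).

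The order of the 9 levels was alike in both groups. In the knockdown libraries it ran CLDN1, CLDN6, OCLN, F11R, TJP1, CLDN12, CLDN7, CLDN4 and CLDN2; in the control libraries CLDN12 stood above TJP1 and the rest kept their places. CLDN1 and CLDN6 were each apart from the next gene in both groups, as were CLDN7, CLDN4 and CLDN2 at the low end. In the knockdown libraries OCLN overlapped with F11R, and TJP1 with CLDN12, while F11R and TJP1 did not overlap. In the control libraries OCLN overlapped with F11R, F11R with CLDN12 and CLDN12 with TJP1.

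Of 38 other tight junction genes tested, from 63 listed, 1 rose, 1 fell and 36 did not pass, with a median log2 fold change of 0.001. Of all genes tested 8.08% were called in either direction, so this count is near the share over all genes. Their groups did not overlap for 6 higher and 5 lower genes, against 33.1% of all genes tested in either direction. At an unadjusted limma p below 0.05, 1 of the 38 was higher and 6 were lower. USP53, a ZO-1 partner of the deubiquitinase family, rose: it had 20.2, 20.1 and 19.2 FPKM in the knockdown and 13.1, 11.1 and 13.2 FPKM in the control libraries (log2 fold change 0.64, SE 0.12, limma adjusted p = 0.0233). AMOTL2, an angiomotin family protein that binds YAP, fell, with 24.1, 25.0 and 23.5 FPKM in the knockdown libraries against 35.4, 41.6 and 35.5 FPKM in the control libraries (-0.61, SE 0.12, adjusted p = 0.0233). Neither passed without any 1 library other than knockdown replicate 1, with adjusted p from 0.0614 to 0.103. AMOTL2 also missed the threshold after rescaling without mitochondrially encoded genes (-0.50, adjusted p = 0.0604).

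Among 5 other claudin family genes tested of 20 listed, 0 rose and 0 fell, against 8.08% of all genes tested in either direction. Of these 5, 0 had an unadjusted limma p below 0.05. CLDN3, the neighbour of CLDN4 on chromosome 7, had 6.60, 7.98 and 8.68 FPKM in the knockdown and 8.58, 5.08 and 10.2 FPKM in the control libraries (log2 fold change 0.01, 95% interval -0.51 to 0.52). CLDN23 (-0.08) and the claudin domain gene CLDND1 (0.20) did not pass either. Of 9 other membrane proteins of the junction, 0 rose and 0 fell, against the same 8.08% of all genes tested. At an unadjusted limma p below 0.05, 0 were higher and 3 lower. The most abundant, EPCAM, had 261, 230 and 237 FPKM in the knockdown and 228, 196 and 205 FPKM in the control libraries (0.21, limma adjusted p = 0.238). The tetraspanin gene CD9 had a log2 fold change of 0.20 and LSR, which encodes the tricellular junction protein angulin-1, one of 0.32, and neither passed. YBX3, a ZO-1-bound transcription factor, had 217 FPKM in knockdown replicate 1 and 146 to 164 FPKM in the other libraries of both groups.

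**Figure D2:**
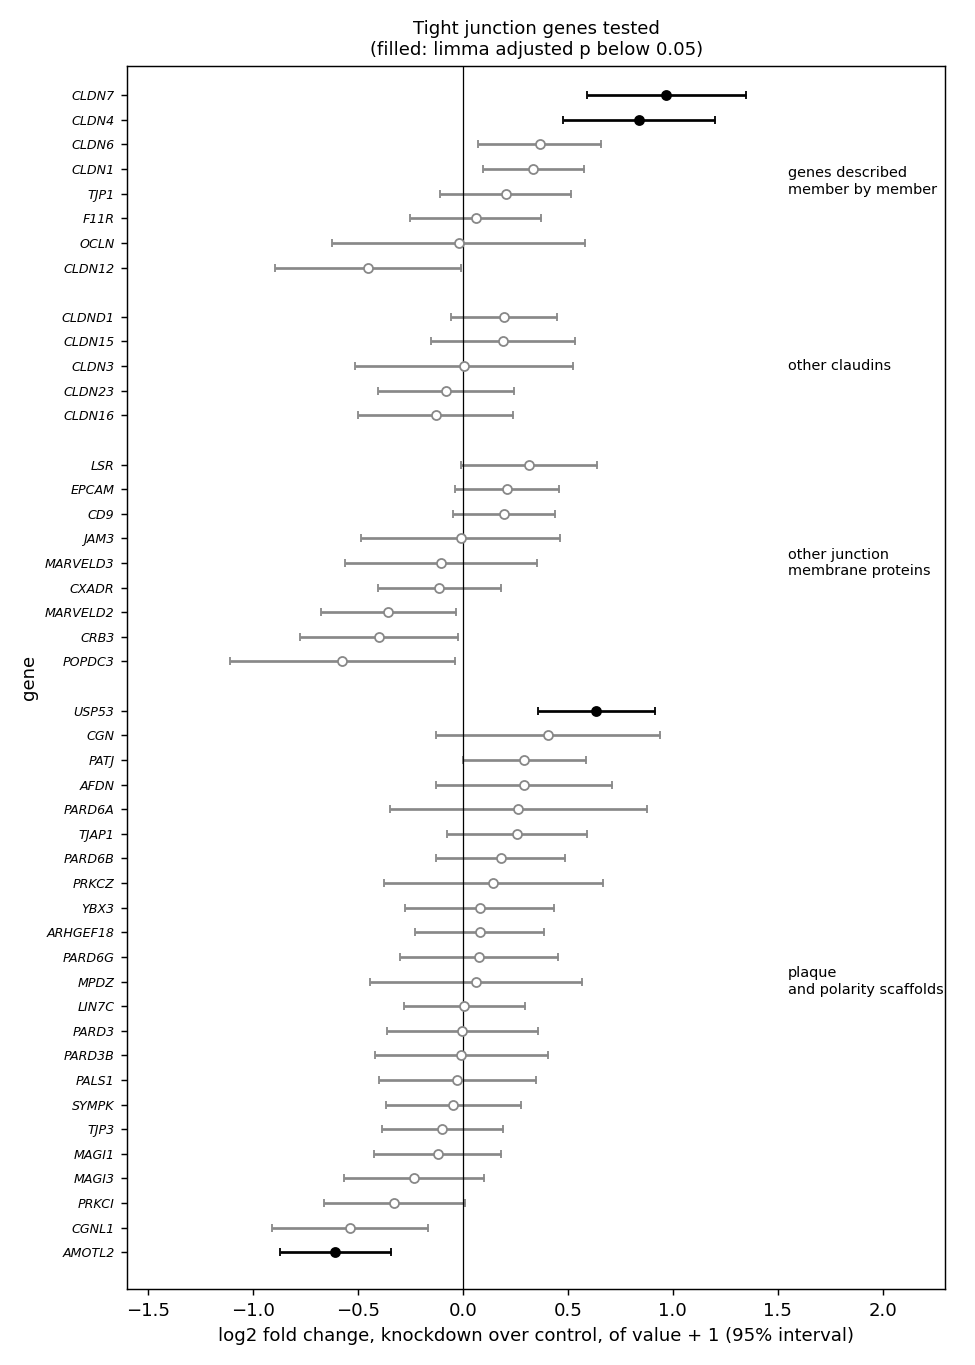
Log2 fold change of the value + 1, knockdown over control, with its 95% interval for the 8 members and the other tight junction genes tested, 1 gene left out, in blocks by role; filled points have a limma adjusted p below 0.05. CLDN7, CLDN4 and USP53 are filled to the right of 0 and AMOTL2 to the left, and the other intervals are drawn open.

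For 7 of the 8 members tested, the gene with the nearest profile over the 6 libraries was sought among the other 45 genes of the junction that were tested, as the root mean square difference of log2 values centred on each gene. USP53 was nearest to both CLDN4 (0.18) and CLDN7 (0.21), which differed from each other by 0.24. Profiles centred in this way keep the difference between knockdown and control. Since USP53 was the only other junction gene that rose, its nearness to these members in part restates the calls. The scaffold gene PATJ was nearest to CLDN1 (0.07), LSR to CLDN6 (0.09), the afadin gene AFDN to OCLN (0.21), ARHGEF18 to F11R (0.06) and TJAP1 to TJP1 (0.09).

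Among 13 tested regulators of claudin transcription, of 20 listed, 2 rose and 0 fell, against 4.15% and 3.94% of all genes tested, with 3 higher and 3 lower at an unadjusted p below 0.05 and a median log2 fold change of 0.19. ELF3, an epithelial transcription factor of the ETS family, had 112, 156 and 177 FPKM in the knockdown and 68.7, 74.3 and 62.4 FPKM in the control libraries. Its lowest knockdown value was in replicate 1 (log2 fold change 1.08, SE 0.17, limma adjusted p = 0.0150). ZEB2, a zinc finger repressor of epithelial genes, had 1.80, 2.48 and 2.29 FPKM in the knockdown and 0.40, 0.22 and 0.77 FPKM in the control libraries (1.14, SE 0.21, adjusted p = 0.0212). All control values of ZEB2 were below the filter of 1 FPKM, so it was tested only because its knockdown values were high. Its place among the 2 that rose thus depended on the outcome, and without the filter its limma adjusted p was 0.0507. An activator (ELF3) and, with that limit, a repressor (ZEB2) of epithelial genes both rose, ELF3 at a far higher level. Without 1 library other than knockdown replicate 1, the adjusted p of ELF3 reached 0.0618 and that of ZEB2 0.0886. KLF5 had 59.0, 39.5 and 39.9 FPKM in the knockdown and 37.4, 38.9 and 36.8 FPKM in the control libraries and did not pass (0.26, adjusted p = 0.323).

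**Figure D3:**
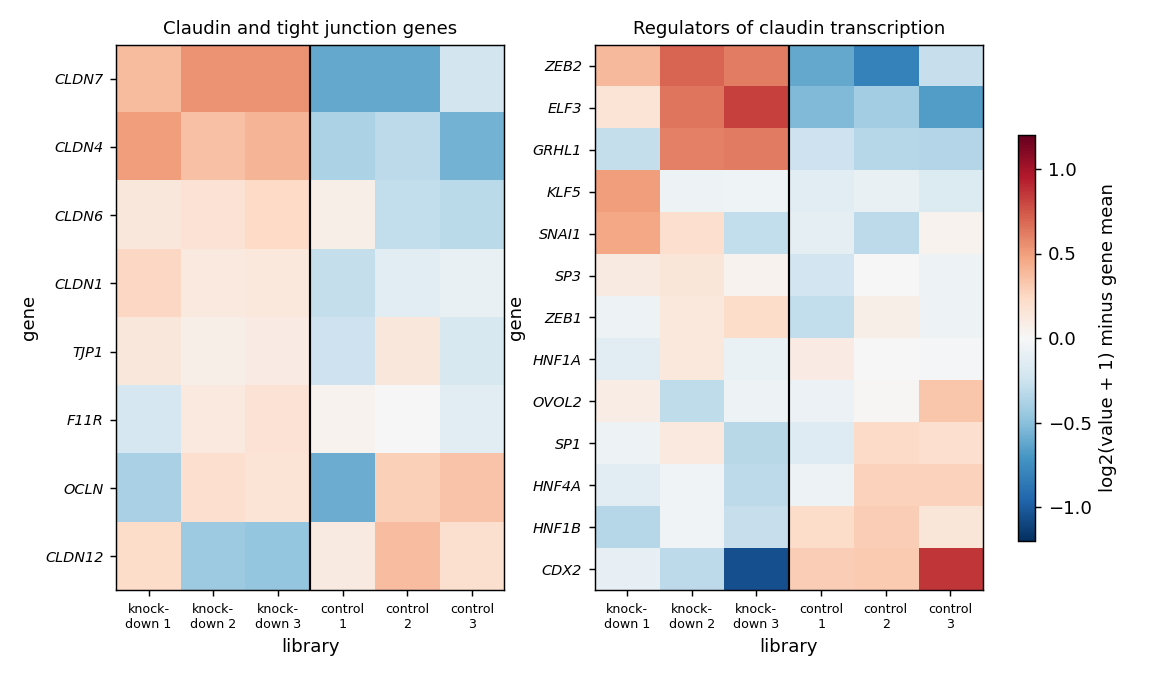
Log2(value + 1) minus the mean of each gene over the 6 libraries (colour, scale from -1.2 to 1.2) for the 8 members tested and 13 regulators of claudin transcription, with knockdown libraries left of the line and control libraries right of it. CLDN7, CLDN4, ZEB2 and ELF3 are above their mean in all 3 knockdown libraries and below it in all 3 control libraries; knockdown replicate 1 differs from the other knockdown libraries in CLDN12, OCLN and GRHL1.

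Markers of hepatocytes and of bile duct cells were read beside the claudins, since CLDN4 and CLDN7 are claudins of bile duct epithelium. Of 10 hepatocyte markers, 2 rose and 1 fell, against 8.08% of all genes tested in either direction: APOA1 (log2 fold change 1.05, limma adjusted p = 0.0325) and FGB (0.70, adjusted p = 0.0188) rose and TTR (-1.19, adjusted p = 0.00770) fell. Of 9 bile duct markers tested 1 rose, SOX9, with 40.5, 48.2 and 53.5 FPKM in the knockdown and 29.9, 32.4 and 30.5 FPKM in the control libraries (0.59, adjusted p = 0.0334). The duct keratin gene KRT19 had 364, 361 and 320 FPKM in the knockdown and 377, 312 and 348 FPKM in the control libraries, with a log2 fold change of 0.01. The summed value of 11 duct markers was 763, 689 and 652 FPKM in the knockdown and 678, 593 and 641 FPKM in the control libraries, and the groups overlapped. Among blood cell markers LYZ, the lysozyme gene, rose (1.08, adjusted p = 0.0277), with 44.5, 68.2 and 37.8 FPKM in the knockdown and 18.3 to 24.8 FPKM in the control libraries; CD3D and S100A9 did not pass. Of these calls, TTR held under all 13 alternatives, FGB under 9, LYZ under 8, APOA1 under 6 and SOX9 under 5. The part of such transcripts in the claudin values was not tested.

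**Figure D4:**
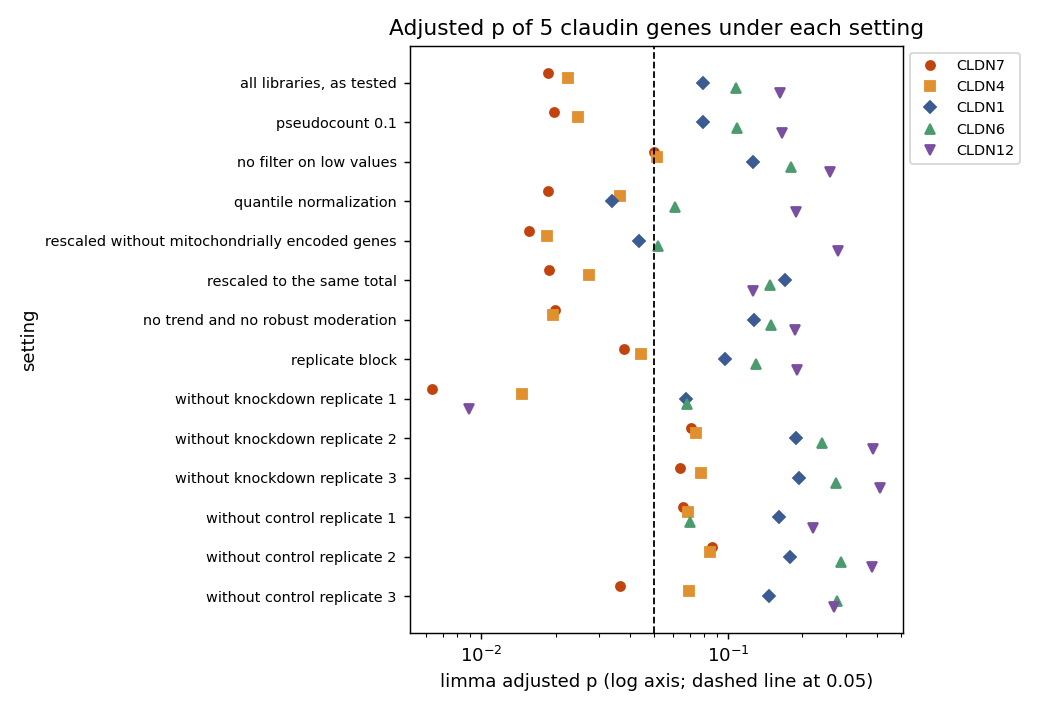
Limma adjusted p (log axis, dashed line at 0.05) of 5 claudin genes with all libraries and under 13 other settings. CLDN7 and CLDN4 lie left of the line with all libraries and move right of it when most single libraries are left out, CLDN7 staying left without knockdown replicate 1 (0.00631) or control replicate 3; CLDN12 lies left of it only without knockdown replicate 1.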

How the data were processed

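Trizol RNA of Huh7 cells went into 6 TruSeq libraries, per the labels' protocols. The authors deposited 1 table of 23344 human Ensembl genes with 1 column per library, whose values were treated as FPKM, although no unit is named and TPM is possible. The submitters' processing notes list RSEM 1.1.17, Bowtie2 2.2.6, DESeq2 1.16.1, edgeR 3.18.1, Trimmomatic 0.36 and bcl2fastq 2.19.0 without their roles, and a mouse build (mm10) although the IDs are human, so coordinates are given for RefSeq promoters alone.

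A gene was tested if its value reached 1 in 3 libraries or more (13696 genes). Log2(value + 1) was compared by a two-sided limma test (version 3.58.1, R 4.3.3; intensity trend, robust moderation), and p-values were adjusted by Benjamini-Hochberg over all of these genes; fold changes on this scale understate those of low genes. "Rose" and "fell" stand for an adjusted p below 0.05. An exact permutation test of 3 against 3 libraries cannot go below p = 0.1. The test was tested on simulated data. A gene's row holds all its isoforms, so V1 is not separated. Read totals are not given, so counting intervals were not computed and read numbers are estimates.

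The members and lists were chosen with earlier results of these data known. All 9 members were named, and of each list up to 5 genes past the threshold, filled up to 3 with the most abundant. Unverified older symbols of CLDN25 and CRB3 were dropped from the lists after the table was seen. The result of 1 tight junction gene is not reported here. Alternatives were a pseudocount of 0.1, no filter, quantile normalization, rescaling to totals with and without mitochondrially encoded genes, no trend or robust moderation, the replicate number as a block, and leaving out each library.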

Additional observations from a re-analysis of the deposited data

How the results depend on the processing

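VCAN, CLDN1, CLDN4, CLDN6, CLDN7, CLDN12 and TJP1 kept their direction under all 13 alternatives. CLDN7 passed in 9 of these, CLDN4 in 7 (unfiltered, its adjusted p was 0.0517), CLDN1 in 2, CLDN12 in 1 and CLDN6 and TJP1 in 0. The number of members that rose was 1 with no filter on low values, 3 with quantile normalization or after rescaling without mitochondrially encoded genes, where CLDN1 passed as well, and between 0 and 2 when 1 library was left out; 0 to 1 fell. Of the other tight junction genes, 0 rose and 0 fell with no filter, 0 fell after rescaling without mitochondrially encoded genes, and 0 to 3 rose and 0 to 3 fell without 1 library. Over all genes, 157 rose and 64 fell with no filter, where 23339 genes were tested, 221 fell (673 rose) after rescaling without mitochondrially encoded genes, 811 fell (517 rose) after rescaling to the same total and 277 fell with no trend and no robust moderation; without 1 library 48 to 1638 rose and 6 to 1704 fell, the highest counts being those without knockdown replicate 1. The cause was not tested.

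Values near 0 changed sign. OCLN was at 0.018 with quantile normalization, 0.085 after rescaling without mitochondrially encoded genes and -0.32 to 0.17 without 1 library. F11R was at -0.011 after rescaling to the same total, -0.0017 with its rows summed and -0.012 to 0.18 without 1 library. CLDN3 was at -0.026 with quantile normalization, -0.059 after rescaling to the same total and -0.25 to 0.19 without 1 library, and CLDN23 at 0.0069 after rescaling without mitochondrially encoded genes. YBX3 ranged from -0.10 to 0.18, EZR from -0.18 to 0.017 and KRT19 from -0.060 to 0.077 without 1 library; EZR was at 0.027 after rescaling without mitochondrially encoded genes and KRT19 at -0.062 after rescaling to the same total.

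With the replicate number as a block 2 members rose and 0 fell (CLDN7 adjusted p = 0.0381, CLDN4 adjusted p = 0.0444). Deviations of same-numbered libraries correlated at 0.053, 0.105 and 0.135 over genes. Those of differently numbered libraries ranged from -0.21 to 0.094, the highest for knockdown replicate 1 with control replicate 2. These values do not settle whether the numbers pair the libraries. The labels do not say that they do, so the main test was unpaired. Depth limits CLDN2, CLDN4 and CLDN7 most.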

Other observations

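Among 16 tested genes of the actomyosin belt that pulls on tight junctions, of 17 listed, 0 rose and 0 fell by limma, against 8.08% of all genes tested in either direction, with 2 higher and 0 lower at an unadjusted p below 0.05. MYH9, which encodes the heavy chain of non-muscle myosin IIA, had 105, 177 and 170 FPKM in knockdown replicates 1, 2 and 3 and 87.01, 104 and 98.5 FPKM in the control replicates (log2 fold change 0.61, adjusted p = 0.0858; without knockdown replicate 1, 0.84 and adjusted p = 0.00231). RHOA, the small GTPase that controls this belt, had 289, 296 and 263 FPKM in the knockdown and 308, 346 and 333 FPKM in the control libraries (-0.22, adjusted p = 0.205). EZR, the ezrin gene, had a log2 fold change of -0.08. MSN, the related moesin gene, was listed at 1.47 FPKM in knockdown replicate 2, the library with blood cell transcripts, and at no more than 0.02 FPKM in the other 5 libraries; it was named after its values were seen.

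Neighbours of the members on the chromosomes were looked up after the members' values were seen. METTL27, on the other side of CLDN4 from CLDN3, had a log2 fold change of -0.02, and its groups overlapped. TNFRSF12A, the receptor gene next to CLDN6, had 295, 243 and 264 FPKM in the knockdown and 185, 140 and 113 FPKM in the control libraries and rose (limma adjusted p = 0.0251), while CLDN9 on the other side was at no more than 1.07 FPKM in any library. GTPBP10, next to CLDN12, had 6.66 to 8.26 FPKM in the knockdown and 8.92 to 13.6 FPKM in the control libraries and did not pass (adjusted p = 0.0678). NSMCE3, next to TJP1, had 9.69 to 11.2 FPKM in the knockdown and 6.30 to 9.64 FPKM in the control libraries and did not pass (log2 fold change 0.38, adjusted p = 0.168). MARVELD2, which encodes tricellulin and lies next to OCLN, had 8.98, 9.87 and 8.84 FPKM in the knockdown and 10.54, 11.9 and 14.0 FPKM in the control libraries; the groups were apart, but the gene did not pass (adjusted p = 0.141).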
